A study of Mus musculus with 6 samples.

Results

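The CCT chaperonin, also called TRiC, is built from 8 related subunits, which are encoded in the mouse by Tcp1 (the CCT1 subunit), Cct2, Cct3, Cct4, Cct5, Cct6a, Cct7 and Cct8. Their transcripts were taken by symbol, written in the table as TCP1, CCT2, CCT3, CCT4, CCT5, CCT6A, CCT7 and CCT8, out of 18388 genes, and all 8 were found and tested. The libraries are RNA-seq of morula-like aggregates, a culture model of the compacting embryo made from mouse expanded pluripotent stem cells. There are 3 libraries from vehicle controls (DMSO 1 to 3) and 3 from cultures given perfluorooctanoic acid (PFOA 1 to 3), a persistent fluorinated surfactant. All were kept in N2B27LCDM medium and then in an induction medium, at 37 °C with 5% CO2 and 20% O2. No genotype, strain, dose or duration of treatment is given in the sources used here. Nothing in the labels ties a replicate to its own culture, so every p-value refers to how much the libraries differ among themselves, which could be technical.

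CCT is a barrel of stacked rings in which each ring holds a copy of every subunit. It takes up newly made proteins, closes over them as it burns ATP, and releases them folded. Actin and tubulin depend on it, as do many WD40 repeat proteins, among them the cell cycle regulator Cdc20. Unfolded actin and tubulin are passed to it by prefoldin. Within a ring, Cct2, Cct4, Cct5 and Cct7 lie together on the side that binds and hydrolyses ATP more strongly, and Tcp1, Cct3, Cct6a and Cct8 on the side that does so weakly. An aggregate that divides and reshapes its cell borders at compaction uses much actin and tubulin, which is the setting in which the 8 transcripts are described here.

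Levels are in FPKM, fragments per kilobase of transcript relative to all mapped fragments of the library, a unit that already divides by transcript length and so allows genes to be compared. CCT transcripts were abundant. Mean FPKM over the 6 libraries ran from 245 for Cct7 to 455 for Cct2, which placed every subunit between the 97.1 and 98.6 percentile of the 11876 tested genes (those with a mean FPKM of at least 1). Cct2 was the highest and Cct7 the lowest of the 8 in each of the 6 libraries, and the highest was 1.80 to 1.93 times the lowest. After Cct2 came Cct5 (394), Cct3 (379), Tcp1 (337), Cct6a (331), Cct8 (318), Cct4 (299) and Cct7. The ranges over libraries of Cct5 and Cct3 overlapped, as did those of Tcp1 and Cct6a and those of Cct6a and Cct8. Their ranges alone do not set these neighbours apart. Compared within each library, Tcp1 was above Cct6a in 6 of 6 (ratio 1.0001 to 1.03). Cct6a was above Cct8 in 6 of 6 (1.01 to 1.09), and Cct5 above Cct3 in 5 of 6 (0.994 to 1.12). Cct2 and Cct5, Cct3 and Tcp1, Cct8 and Cct4, and Cct4 and Cct7 did not overlap.

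Not all of these levels are equally certain. Of the 50-nt words of the longest coding transcript (GENCODE M21, either strand), 22.2% for Tcp1 also occur in transcripts of other genes, mostly Acat3. The share was 16.8% for Cct6a, all with Psph, 8.28% for Cct7, 6.10% for Cct8 and 2.13% for Cct3, and under 1% for Cct2, Cct4 and Cct5. Tcp1 and Cct6a are uncertain for this reason, since the counting may have divided reads among the genes. Cct6b and Cct8l1, relatives of the ring subunits, were near 0. Cct6b, the testis form of the sixth subunit, was at 0.27, 0.32 and 0.66 FPKM in DMSO and 0.23, 0.23 and 0.36 in PFOA, and Cct8l1 was at most 0.11 in every library. Both were below the limit for testing. The chaperonin-like genes Mkks, Bbs10 and Bbs12 were above it, with means over the 6 libraries of 8.17, 2.32 and 1.965 FPKM. The level of Mkks is uncertain, with 28.6% of its 50-nt words in other genes.

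**Figure D1:**
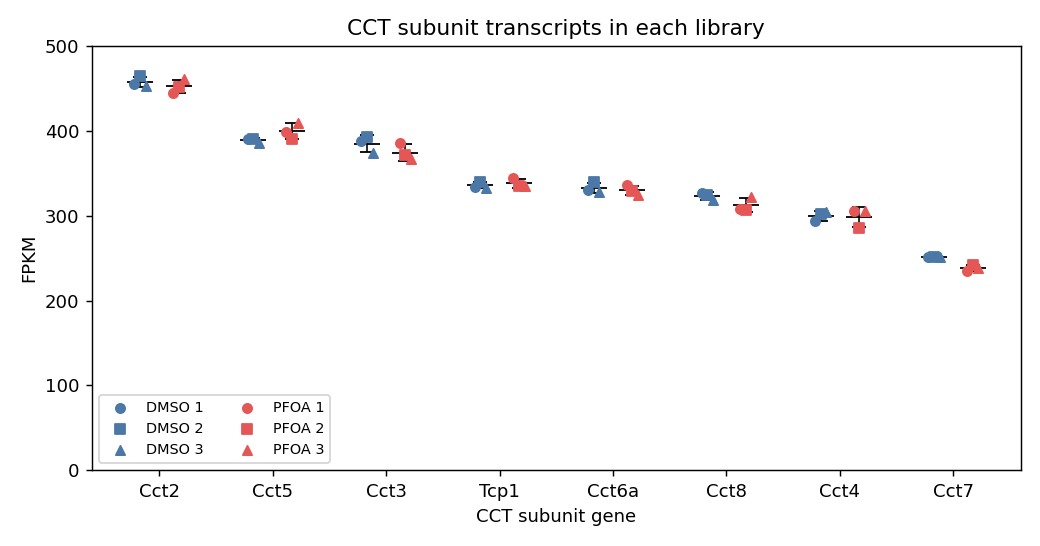
FPKM of the 8 CCT subunit genes in each library (y axis, from 0), ordered by mean level; blue points are DMSO, red points are PFOA, symbols mark the replicate, and bars are the mean with the SD of 3 libraries. Cct2 is highest and Cct7 lowest in all 6 libraries, and Cct7 alone has its PFOA points all below its DMSO points.

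Promoters were searched because the subunits are all transcribed at like, high levels in these cells. The series title also names c-MYC, whose canonical site is the E-box. The 5 promoters below are the windows that held a match to a motif searched, so the display was chosen by its matches. Windows without a match, as for Cct5 and Cct8, are not shown. RefSeq sequences on GRCm38.p6 were found for 7 of the 8 subunits, in 9 windows. The 250 bases before each start site were searched on both strands for the E-box CACGTG, the heat shock element core GAANNTTC and the CCAAT box. CACGTG is in 6.02% of 32851 promoter windows and in none of the 9 CCT windows (0 members). GAANNTTC, in 6.69% of windows, is in 1 member, Cct2. CCAAT, in 33.9% of windows, is in 4 members: Tcp1, Cct3, Cct6a and Cct7. These are matches of letters and not measured binding, and the absence of letters from a window says nothing about the factor. Each line gives the 200 bases up to the start site, 5′ to 3′ on the gene's strand, with matches in capitals (ATTGG is CCAAT on the other strand). Positions are chr17:12916129-12916328 on the plus strand for Tcp1, chr3:88296935-88297134 on the plus strand for Cct3, chr5:129787156-129787355 on the plus strand for Cct6a, chr6:85451305-85451504 on the plus strand for Cct7, and chr10:117063376-117063575 on the minus strand for the start of Cct2 that holds the match.
Tcp1: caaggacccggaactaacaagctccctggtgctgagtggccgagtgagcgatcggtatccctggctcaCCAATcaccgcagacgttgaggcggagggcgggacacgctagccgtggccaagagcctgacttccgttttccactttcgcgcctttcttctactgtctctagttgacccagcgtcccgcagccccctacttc
Cct3: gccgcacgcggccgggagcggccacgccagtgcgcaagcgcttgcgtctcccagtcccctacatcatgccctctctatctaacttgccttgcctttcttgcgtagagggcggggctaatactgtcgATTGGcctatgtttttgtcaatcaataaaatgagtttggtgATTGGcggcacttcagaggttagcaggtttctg
Cct6a: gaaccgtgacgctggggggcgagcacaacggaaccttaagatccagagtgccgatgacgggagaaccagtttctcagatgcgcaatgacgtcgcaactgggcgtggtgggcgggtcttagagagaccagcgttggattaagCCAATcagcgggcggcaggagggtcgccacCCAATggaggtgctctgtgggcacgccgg
Cct7: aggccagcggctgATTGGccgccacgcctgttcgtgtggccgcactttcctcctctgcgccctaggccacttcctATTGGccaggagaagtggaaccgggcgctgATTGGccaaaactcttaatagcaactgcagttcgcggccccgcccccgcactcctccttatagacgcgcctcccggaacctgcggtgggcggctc
Cct2: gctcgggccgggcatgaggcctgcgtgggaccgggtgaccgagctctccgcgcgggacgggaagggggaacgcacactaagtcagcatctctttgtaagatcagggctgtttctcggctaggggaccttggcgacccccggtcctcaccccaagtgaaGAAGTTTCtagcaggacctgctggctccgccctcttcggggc
Cct7 holds 3 CCAAT matches, at −187, −125 and −95 from its start site. In Cct3 they are at −74 and −33, in Cct6a at −59 and −29, and in Tcp1 at −132, and the heat shock match of Cct2 is at −42.

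The question put to the subunits was whether PFOA changed their transcripts. It was tested with limma on log2(FPKM + 1), with Benjamini-Hochberg adjustment over all 11876 genes. In this comparison 0 genes (0%) were called higher and 1 (0.00842%) lower, Bri3, which is named here only because it was the single call. None of the 8 subunits (0) was called. At an unadjusted p under 0.05 in limma, 1016 genes (8.56%) were higher and 1489 (12.5%) lower, and again 0 of the 8 subunits were among them. With FPKM rescaled to the same total in each library the split of those genes turned to 2506 higher (21.1%) and 500 lower, and with quantile normalization to 1362 (11.5%) and 1114. Cct5 was then the 1 subunit higher at an unadjusted p under 0.05, in both scalings, and also with a trend on transcript length removed (4.55% of genes). Cct7 was lower at that level with no filter on low values (8.46% of genes), and Cct3 without both DMSO 3 and PFOA 1 (12.3%). Log2 fold changes of the subunits ran from −0.076 to 0.039 with a median of −0.014, beside a median of −0.0065 over all tested genes. There were 6 subunits with a fitted change below 0 (52.4% of all genes were) and 2 above (47.6% of all genes). This direction turned with the scaling: all 8 were above 0 with one total per library and with quantile normalization.

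On the strong-ATP side of the ring, Cct2, whose human counterpart is mutated in a form of Leber congenital amaurosis, was at 455, 464 and 453 FPKM in DMSO and 445, 452 and 461 in PFOA. The 2 groups overlapped (457 ± 6.11 and 452 ± 7.89, n = 3 each, SD; log2 fold change −0.016, SE 0.037, limma adjusted p = 0.835). Cct4 was at 293, 302 and 305 in DMSO and 305, 285 and 305 in PFOA. PFOA 2 was the lowest library for it and the groups overlapped (log2 fold change −0.0077, SE 0.042, limma adjusted p = 0.933). Cct5, whose human gene is mutated in a hereditary sensory neuropathy, was at 389.8, 391 and 386 in DMSO and 399, 390.2 and 409 in PFOA. PFOA 1 and PFOA 3 were above every DMSO library and PFOA 2 was among them. This was the largest positive fold change of the 8 (0.039, SE 0.037; limma adjusted p = 0.574). Cct7 was at 251, 252 and 251 in DMSO and 235, 242 and 238 in PFOA.

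Cct7 was the 1 subunit whose groups did not overlap in deposited FPKM, with all PFOA libraries lower (13.7% of tested genes were separated in that direction and 13.5% in the other). Its means were 251 ± 0.359 and 238 ± 3.58 (SD, n = 3 each), a log2 fold change of −0.076 (SE 0.034, 95% confidence interval −0.15 to 0.0011, limma adjusted p = 0.242). It did not pass the test. With one total per library the groups overlapped (242, 242 and 247 in DMSO and 253, 242 and 242 in PFOA) and its log2 fold change was 0.012; with quantile normalization it was 0.0073. Other subunits were separated in those scalings, with all PFOA libraries higher: 4 with one total per library (Tcp1, Cct2, Cct5 and Cct6a; 27.8% of tested genes) and 3 with quantile normalization (Tcp1, Cct2 and Cct5; 16.6%).

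On the weak-ATP side, Tcp1, the founding member, first described from the mouse t-complex, was at 334, 339.9 and 333 FPKM in DMSO and 344, 335 and 335 in PFOA. These overlapped (336 ± 3.59 and 338 ± 5.28, n = 3 each, SD; log2 fold change 0.0092, SE 0.035, limma adjusted p = 0.902). Cct3 was at 387, 393 and 373 in DMSO and 385, 371 and 366 in PFOA. DMSO 3 was below PFOA 1 (log2 fold change −0.039, SE 0.040, limma adjusted p = 0.609). Cct6a was at 330.1, 339.8 and 328 in DMSO and 336, 329.5 and 325 in PFOA, again with overlap (−0.012, SE 0.036, limma adjusted p = 0.880). Cct8 was at 327, 324 and 319 in DMSO and 308, 307 and 322 in PFOA. PFOA 3 lay above DMSO 3 and the other PFOA libraries below every DMSO library (−0.051, SE 0.037, limma adjusted p = 0.459).

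A p that misses the threshold does not show equal levels, so the intervals are given. In deposited FPKM the 95% confidence intervals of the 8 subunits reached down to −10.03% (Cct7) and up to 8.91% (Cct5). For Tcp1 the interval was −4.83% to 6.42%, for Cct2 −6.75% to 4.88% and for Cct6a −6.38% to 5.08%. All 8 intervals held 0. With one total per library the interval of Cct5 was 1.78% to 17.1% and with quantile normalization 2.07% to 17.9%, without 0, though the adjusted p was 0.132 and 0.169 in limma. The other 7 held 0 in both scalings.

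**Figure D2:**
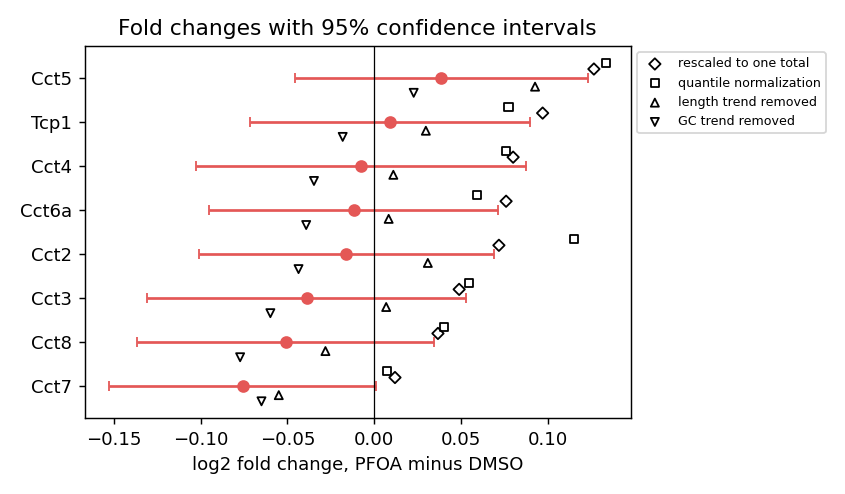
Log2 fold change, PFOA minus DMSO, of each CCT subunit (red points, with 95% confidence intervals from limma) and the same value under 4 other treatments of the data (open symbols). Every interval drawn, in deposited FPKM, holds 0; the values rescaled to one total and quantile normalized lie to the right of 0 for all 8 subunits, from 0.0073 for Cct7 to 0.13 for Cct5.

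Summed over the 8 subunits, CCT transcripts came to 2768, 2806 and 2747 FPKM in DMSO and to 2757, 2712 and 2760.5 in PFOA, that is 2774 ± 29.6 and 2743 ± 27.2 (SD, n = 3 each). The groups overlapped. As a share of all FPKM of a library they made up 0.423%, 0.427% and 0.428% in DMSO and 0.471%, 0.430% and 0.443% in PFOA, each PFOA library above each DMSO library and PFOA 1 highest. The summed FPKM of all genes was 641975 to 657239 in DMSO and 585739 to 630644 in PFOA, lowest in PFOA 1. The share of CCT was thus separated upward, while its summed level overlapped. Many genes moved in this way: with one total per library 27.8% of tested genes were separated upward. Their median log2 fold change was then 0.071 over all tested genes and 0.074 over the subunits. The deposited values cannot tell which denominator is right. In bulk RNA, fewer cells of a type and less RNA per cell cannot be told apart either.

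Ratios among the subunits are the same in deposited FPKM and with one total per library, though quantile normalization changes them. Cct5 made up 14.1%, 13.9% and 14.04% of the summed 8 in DMSO and 14.5%, 14.4% and 14.8% in PFOA. Its PFOA libraries were all above its DMSO libraries. Cct7 made up 9.07%, 8.97% and 9.13% in DMSO and 8.51%, 8.92% and 8.64% in PFOA, all PFOA libraries lower. Tcp1 was separated by a margin that vanishes on rounding (at most 12.1265% in DMSO and at least 12.1268% in PFOA). The other 5 overlapped. Of all tested genes, divided in the same way by the summed 8, 16.1% were separated upward and 11.0% downward, so the 2 and 1 of 8 subunits are read against those shares and nothing is drawn from them. The ratio of Cct5 to Cct7, a pair of ring neighbours chosen here after their values were seen, was 1.55, 1.55 and 1.54 in DMSO and 1.70, 1.61 and 1.71 in PFOA. Cct7 has the highest GC content of the 8 transcripts (53.95%, against 43.3% to 50.2% for the others) and Cct5 the shortest transcript (1853 nt, against up to 2484 nt for Cct4). With a per-library trend on GC content removed the log2 fold changes of Cct5 and Cct7 were 0.023 and −0.065, and with a trend on transcript length removed 0.093 and −0.055.

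**Figure D3:**
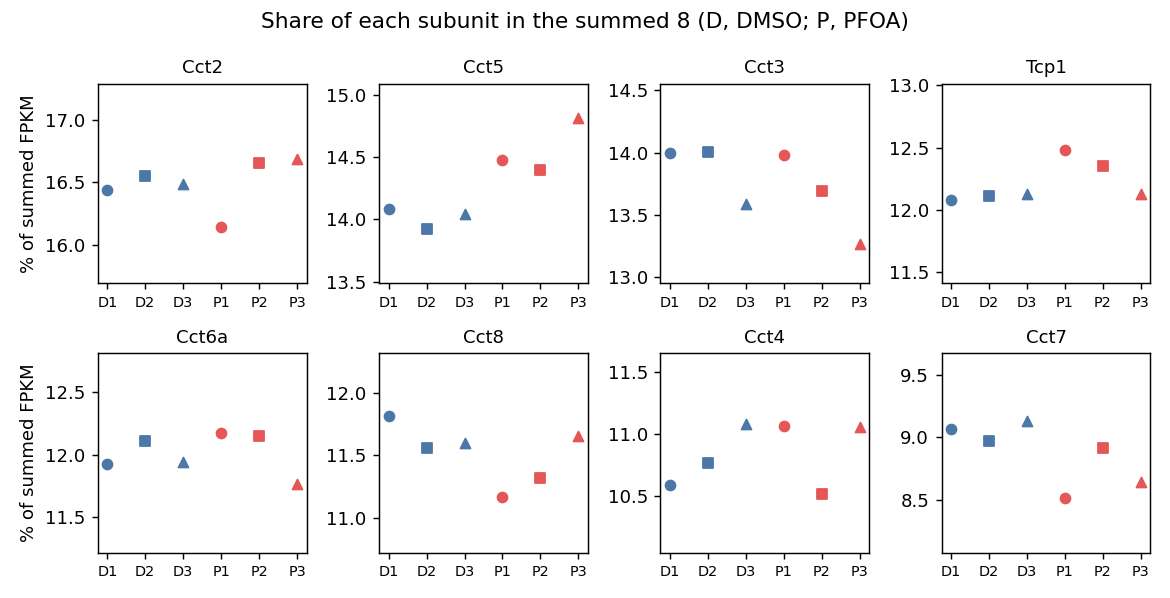
Share of each subunit in the summed FPKM of the 8, in percent, per library (D1 to D3, DMSO in blue; P1 to P3, PFOA in red); each panel spans the same height and does not start at 0. Cct5 is higher and Cct7 lower in all 3 PFOA libraries, and the panels other than Cct5, Cct7 and Tcp1 overlap.

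Over all 6 libraries the subunits varied little in deposited FPKM. The coefficient of variation (SD over mean) ran from 1.25% for Tcp1 to 3.03% for Cct7, with a median of 2.42%. It was 6.71% for the median tested gene and 6.07% for the median of the 442 genes that averaged 200 FPKM or more. Of these abundant genes other than the subunits, 20.7% lay below the highest subunit. How narrow the spread is depended on the scaling. With FPKM rescaled to one total the median of the subunits was 4.72%, beside 7.85% for all tested genes and 4.82% for the abundant ones. With quantile normalization it was 5.21%, beside 6.57% and 4.63%. In deposited FPKM, Pearson's r over the 6 libraries ran from −0.75 (Cct5 with Cct7) to 0.87 (Cct3 with Cct6a) among the 28 pairs, with a median of 0.13 and 19 pairs above 0. With one total per library all 28 pairs were above 0 (median 0.84, from 0.60 to 0.98), as they were with quantile normalization (median 0.88), and all 8 subunits were then highest in PFOA 1. All pairs share the same libraries and their scaling, so these values are descriptive.

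**Figure D4:**
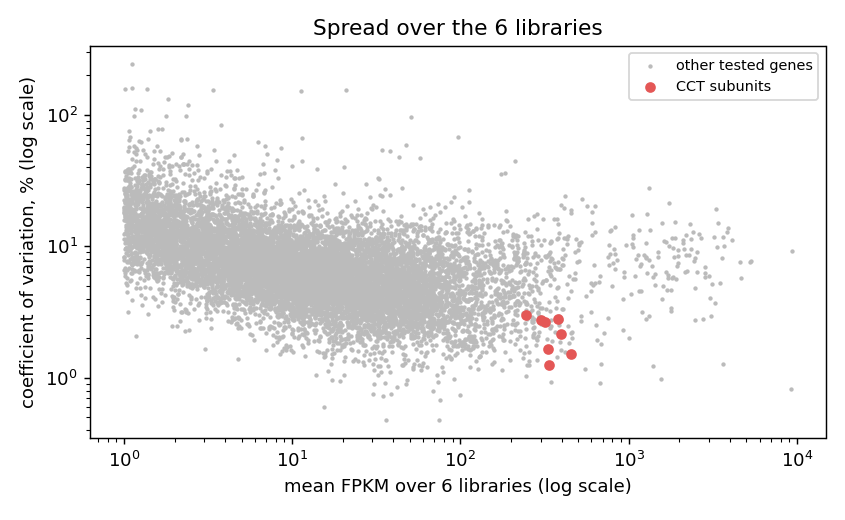
Coefficient of variation over the 6 libraries, in percent, against mean FPKM, both on log axes, in deposited FPKM; grey points are the tested genes and red points the 8 CCT subunits. The subunits lie between 1.25% and 3.03%, in the lower part of the cloud at their level.

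Outside the 8, the 5 genes of at least 10 FPKM whose profile in deposited FPKM was most like the mean subunit were Rab5a, Fam133b, Gm15501, Lyplal1 and Pus1. Their Pearson's r was 0.989, 0.989, 0.9815, 0.975 and 0.971. Rab5a, the early endosome GTPase, was at 52.1, 54.7 and 50.7 FPKM in DMSO and 51.4, 48.8 and 50.95 in PFOA. It followed the mean subunit's highest point in DMSO 2 and lowest in PFOA 2. Pus1 is a pseudouridine synthase. In all, 45 of 6577 genes had an r above 0.9, and with 6 libraries such likeness is weak. It was not examined with one total per library or quantile normalization, where all 8 subunits were highest in PFOA 1.

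Cofactors that serve CCT had, as a list, a lower median fold change than the subunits. Of 10 genes for prefoldin subunits and phosducin-like proteins, which bind the ring and help or hold its clients, 9 were lower in PFOA (52.4% of all tested genes were). Their median log2 fold change was −0.17, and 7 had all PFOA libraries below all DMSO libraries (13.7% of all tested genes did). None (0) passed the test over all genes, and 8 were lower at an unadjusted p under 0.05 (12.5% of all genes). Pfdn5 was at 164, 160.3 and 155 FPKM in DMSO and 127, 144 and 142 in PFOA (log2 fold change −0.22, limma adjusted p = 0.128). Pfdn6 was at 139, 149 and 141 against 127, 133 and 123 (−0.16, limma adjusted p = 0.134). Both are prefoldin subunits whose groups did not overlap. Of their 50-nt words, 27.0% for Pfdn5 and 8.31% for Pfdn6 also occur in other genes, so the level of Pfdn5 is uncertain. The low phosducin-like gene Pdcl2 was at 2.2, 1.89 and 2.43 against 1.38, 1.42 and 1.44. The list's median stayed below 0 with one total per library (−0.085), with quantile normalization (−0.14) and with the length trend removed (−0.087), while that of the CCT subunits was 0.074, 0.068 and 0.0097. No test of this difference between the lists was made.

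Transcript length moved with the groups and differs between these lists, and its part in the difference was not tested. The cofactor list has a median length of 1388 nt and the CCT subunits one of 2417.5 nt. The 692 tested genes under 1000 nt lay at −0.16 in the median (log2 fold change), and 86.4% were lower. The 1641 other genes in the length range of the subunits, 1853 to 2484 nt, lay at −0.046 (71.1% lower), and the 3809 genes from 4000 nt upward at 0.066 (22.2% lower). At −0.014 the CCT median lay above that of genes of its own length.

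Beside the counts of lower genes that follow for deposited FPKM, 52.4% of all tested genes were lower. Tubulin folding cofactors, which join the α and β chains after CCT releases them, had 6 of 7 members lower and a median of −0.14 (0 called). With one total per library 5 were lower (median −0.063), and with the length trend removed 7 were (median −0.046). Tbca was at 129, 134 and 128 FPKM in DMSO and 93.0, 111 and 112 in PFOA (log2 fold change −0.31, limma adjusted p = 0.121). Its transcript is 559 nt long, and its level is uncertain, since 25.5% of its 50-nt words occur in other genes. Of the prefoldin-like and R2TP genes 5 of 7 were lower (median −0.061, 0 called), with Uxt lowest at −0.29. With one total per library 2 of these 7 were lower (median 0.024), and with the length trend removed the median was 0.00033. The level of Uxt is also uncertain, with 38.3% of its 50-nt words in other genes. The known clients lay between: 12 of 17 actin and tubulin genes were lower (median −0.073, 0 called) and 11 of 15 WD40 and other clients (median −0.057, 0 called). With one total per library these medians were 0.0073 and 0.030. Among them Tubb3 (27.0 ± 0.519 and 24.1 ± 0.824), the G protein β subunit Gnb2 (116 ± 3.22 and 102 ± 5.97) and the mitotic kinase Plk1 (122 ± 2.63 and 113 ± 2.23 FPKM in DMSO and PFOA, SD, n = 3 each) had small unadjusted p. The client lists have median transcript lengths of 1952 and 2199 nt. These are in the length range of the subunits, where 71.1% of genes were lower. Nothing particular to clients is drawn from their counts. Cytosolic heat shock chaperones and their factor Hsf1 were lower for 15 of 21 (median −0.064, 0 called), and with one total per library for 10 of 21 (median 0.023). Their summed FPKM was 11917 to 12040 in DMSO and 11979 to 12264 in PFOA, with overlap. The abundant Hsp90ab1 (3161 ± 52.5 and 3358 ± 65.1) and Hsp90aa1 (2425 ± 57.5 and 2520 ± 39.4) had every PFOA library higher (SD, n = 3 each). Both were chosen after their values were seen, and 58.5% of the 50-nt words of Hsp90aa1 occur in other genes. In this list 2 genes had every PFOA library higher (13.5% of tested genes) and 6 every one lower (13.7%). Hspa1a, a stress-inducible HSP70, was low at 2.92, 3.12 and 2.63 in DMSO and 2.11, 2.01 and 1.89 in PFOA (limma adjusted p = 0.110). Of its 50-nt words 66.3% are shared with other genes, chiefly Hspa1b. Hspa1b, given here for those shared words, was at 5.29, 4.75 and 6.35 in DMSO and 4.89, 5.47 and 6.24 in PFOA, with overlap. The mitochondrial chaperonin, which is built on another plan, was described by Hspd1 at 395, 402 and 399 FPKM in DMSO and 392, 384 and 397 in PFOA, with overlap (log2 fold change −0.029, limma adjusted p = 0.673). Its level is uncertain, since 44.8% of its 50-nt words occur in other genes.

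**Figure D5:**
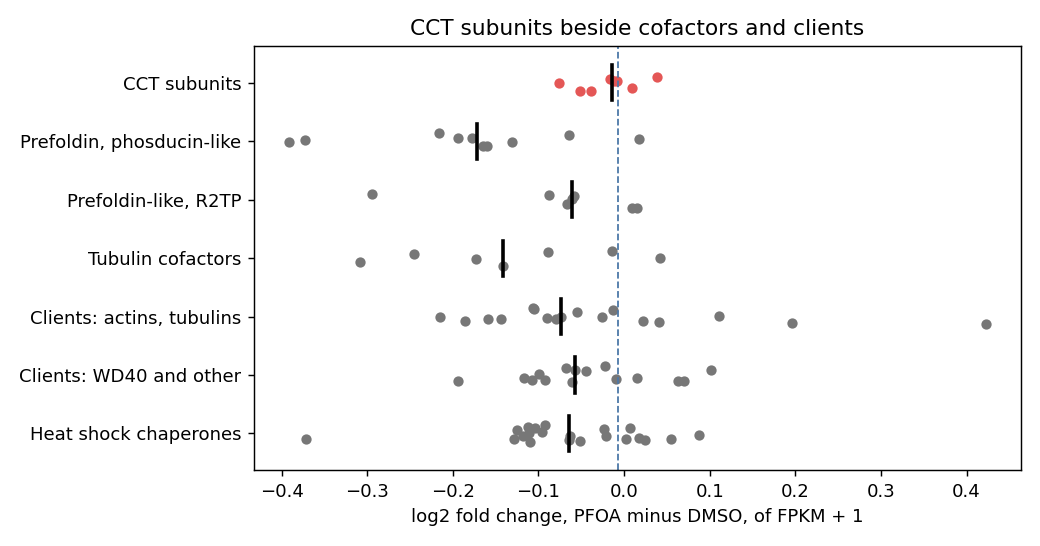
Log2 fold change, PFOA minus DMSO, of each tested gene of 7 lists (points; height within a row is only for legibility), with the list median as a black bar and the median of all tested genes as a dashed blue line. The CCT subunits lie between −0.076 and 0.039, and the prefoldin and phosducin-like cofactors have a median of −0.17.

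The labelled cell type was checked against its markers. All 10 pluripotency markers were tested, none was at 0, and their summed FPKM was 4305 to 4522 in DMSO and 3719 to 4180.5 in PFOA. Of 10 fibroblast markers, which feeder cells would bring, 8 were tested. The sum over all 10 was 49.0 to 53.7 in DMSO and 42.8 to 47.9 in PFOA, with no marker at 0 in all libraries. Fbln1 was the largest part of it (24.3 ± 0.839 and 23.9 ± 1.81 FPKM in DMSO and PFOA, SD, n = 3 each), with overlap. Dcn (7.59 ± 0.868 and 6.24 ± 0.420) and the low S100a4 (3.25 ± 0.935 and 1.13 ± 0.803) had every PFOA library lower, as for 13.7% of tested genes. Neither was called (limma adjusted p = 0.166 and 0.130). Of the 50-nt words of S100a4 56.3% occur in other genes, so its level is uncertain. Col1a1 and Col1a2 averaged 2.17 and 1.32 in DMSO and 2.13 and 1.26 in PFOA. Both sums were lower in every PFOA library. So was the summed FPKM of all genes (641975 to 657239 in DMSO and 585739 to 630644 in PFOA). The pluripotency sum is carried by Dppa5a (2239 ± 56.1 and 1952 ± 244) and Pou5f1 (979 ± 33.9 and 885 ± 34.4 FPKM in DMSO and PFOA, SD, n = 3 each). Of the 50-nt words of Dppa5a 38.6% occur in other genes, and of those of Pou5f1 15.9%, so the level of Dppa5a is uncertain. By gene, 5 of the 10 pluripotency markers were higher and 5 lower (median log2 fold change 0.019), and 8 were higher with one total per library (median 0.11). Of the tested fibroblast markers 7 of 8 were lower (median −0.089), beside 52.4% of all tested genes, and 4 of 8 with one total. The part of these markers in the values of the CCT subunits was not tested.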

How the data were processed

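RNA was measured in 6 libraries: polyadenylated RNA was selected from 1.2 µg of total RNA (TRIzol, integrity number over 8.0) and read on a BGISEQ-500, per the labels' protocols. The deposited table gives FPKM per gene, which the authors wrote to 2 decimals with 1 column per library. HISAT2 2.0.4, Bowtie2 2.2.5 and GRCm39 are named in the submitters' processing notes, without their roles. How reads were counted, and on which annotation, is not given in the sources used here. Each value is relative to its library total, so a fall of other abundant transcripts raises it. Depth is unknown: of 479 low values, 47.8% lay within 0.15 of a whole multiple of the gene's smallest value, so no whole reads could be recovered and count tests were left out.

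The subunits were matched by symbol. Values were analysed as log2(FPKM + 1), which understates changes of low genes, for the 11876 genes averaging 1 FPKM or more (6512 were left out). PFOA and DMSO were compared in R 4.3.3 with limma 3.58.1 (trended prior variance, two-sided, Benjamini-Hochberg threshold 0.05), using all 6 libraries, grouped by title. The fit was tested on simulated data. The 8 members and all lists were chosen with earlier results of these data known, so lists are described by counts and medians only. Of each list, the 3 genes with the smallest p could be named, with Cct6b and Hspd1 and the 5 genes most like the mean subunit. Lengths, GC content and shared words came from the longest transcripts of GENCODE M21 (GRCm38), found for 97.1% of tested genes; coordinates are printed only for the RefSeq promoter windows, on GRCm38.p6. Trends on length or GC were removed per library by lowess with a span of 0.3. Other scalings, filters, pseudocounts, weights, a replicate block and left-out libraries were tried as alternatives.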

Additional observations from a re-analysis of the deposited data

How the results depend on the processing

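None of the 8 CCT subunits passed the threshold under any of the 17 alternatives (0 calls; smallest limma adjusted p = 0.132, Cct5 with one total per library). Of 136 subunit values, 113 kept their direction and 23 turned; Cct5 stayed above 0 in all 17. With FPKM rescaled to one total, Cct2 was 0.072, Cct3 0.049, Cct4 0.080, Cct6a 0.076, Cct7 0.012 and Cct8 0.037, and the median of the 8 was 0.074 (all genes 0.071). With quantile normalization these were 0.12, 0.054, 0.076, 0.059, 0.0073 and 0.040, and the median 0.068 (all genes 0.0100). With the length trend removed Cct2 was 0.031, Cct3 0.0069, Cct4 0.011 and Cct6a 0.0083, and the median 0.0097. With the GC trend removed Tcp1 was −0.018 and the median −0.041. Tcp1 was −0.00064 with library weights and −0.0093 without both DMSO 3 and PFOA 1. Leaving out 1 library at a time, the median of the CCT subunits ranged from −0.024 to −0.0038. Tcp1 ranged from −0.0037 without PFOA 1 to 0.018 without DMSO 2. Cct6a was 0.0036 without DMSO 2, and Cct4 0.0032 without DMSO 3 and 0.025 without PFOA 2. Except where fewer samples or another denominator make it plain, the cause was not tested.

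Over all genes, 1 was called lower and 0 higher. The count lower was 0 with no filter on low values, with no variance trend and with the length trend removed, and 2 with library weights and with the GC trend removed. With 1 library left out, 0 to 13 genes were called higher and 0 to 91 lower: 13 and 39 without DMSO 3, and 3 and 91 without PFOA 2. Without both DMSO 3 and PFOA 1 there were 10 and 42. In the replicate block fit the count lower was 0 and higher 0, and no subunit changed its call. Libraries with the same number did not deviate together (correlations −0.11, −0.0095 and −0.14). With 3 libraries a group, each centred on its group mean, these values cannot decide whether the numbers pair them. The median coefficient of variation of the CCT subunits under other scalings, chosen after seeing the data, was 4.72% and 5.21%. With 3 libraries a group and unknown depth, changes of the subunits smaller than their intervals were not detectable.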

Other observations

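Among the clients of CCT, a pair of α-tubulin genes set DMSO 1 and 2 apart from the other libraries; they are named here after their values were seen. Tuba1c was at 296 and 296 FPKM in DMSO 1 and 2, 432 in DMSO 3 and 408, 477 and 469.9 in PFOA 1 to 3. Tuba1b was at 2124 and 2141 in DMSO 1 and 2, 1813 in DMSO 3 and 1559, 1822 and 1857 under PFOA. In both genes DMSO 3 lay within the PFOA range. Of the 50-nt words of Tuba1b 83.1% occur in other genes, and of those of Tuba1c 61.0%, so both values are uncertain. The β-tubulin gene Tubb2a also set DMSO 1 and 2 apart (21.12 and 22.35 FPKM). It was at 32.51 in DMSO 3 and 27.77, 29.99 and 28.2 in PFOA 1 to 3. Its level is uncertain too, with 49.6% of its words in other genes. The β-actin gene Actb, a major client also chosen after its values were seen, was at 1621, 1628 and 1644 in the DMSO libraries against 1709, 1807 and 1770.4 under PFOA, with every PFOA library higher, as for 13.5% of tested genes (limma adjusted p = 0.230).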
